A study of Mus musculus with 8 samples.

Results

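The genes of the mitochondrial respiratory chain were followed in aortas of male mice with a Marfan genotype at 2 ages. The set held every listed gene symbol beginning with mt-, Nduf, Uqcr, Atp5 or Cox4 to Cox8, together with Sdha, Sdhb, Sdhc and Sdhd, which gave 110 of the 25526 symbols in the count tables. Of these, 13 are encoded by mitochondrial DNA and 97 by nuclear genes. The tissue came from 4 mice aged 2 years and 4 mice aged 12 weeks, and all of them carried the Fbn1C1041G/+ allele, so both ages share the mutation and the set holds no mouse without it. The design text calls the aneurysms growth arrested at 2 years and growing at 12 weeks, and age and that state cannot be told apart in these groups. Each library was bulk RNA of aorta, in which fewer cells of a type and less RNA per cell cannot be told apart.

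The respiratory chain passes electrons from NADH and succinate to oxygen through complexes I to IV and uses the resulting proton gradient to drive ATP synthase, complex V. Mitochondrial DNA encodes a small set of hydrophobic core subunits of complexes I, III, IV and V, and all its messages except mt-Nd6 are cut from a polycistronic transcript of the same strand. Complex II and all other subunits are made from nuclear genes and imported. In the aorta the chain works mainly in smooth muscle cells of the media, and several complex IV subunits have separate isoforms used in heart, skeletal muscle or brown fat, tissues that lie beside the vessel.

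The nuclear members do not share a chromosome, and what their promoters share was counted. RefSeq promoters of the GRCm38.p6 build, running from 250 bases before to 50 bases after a start site, were matched to 76 of the 97 nuclear members, which had 81 promoters in all. A palindromic motif of nuclear respiratory factor 1, NRF1 (GCGCNTGCGC), and the core bound by ETS factors such as GABP (CCGGAAG) were searched on both strands, and both are textbook elements of these promoters. The NRF1 letters stood in 23.5% of the members' promoters and in 4.6% of the 32851 promoters of the table. The ETS core stood in 23.5% of the members' promoters and in 8.86% of all promoters. Of the tested members, 19 had an ETS core and all 19 rose at 2 years by the test described below (median log2 fold change 0.72). In the members without one, 44 of 56 rose (median 0.64). With an NRF1 match 15 of 18 rose (median 0.65), and without one 48 of 57 (median 0.68). The same test called 25.8% of all tested genes higher. The medians were close, and no test of the difference was made. These counts are without the length and GC offset described below. With it, Atp5md was the only member with an ETS core called higher (0.57). Atp5h (-0.29), Atp5k (-0.54), Cox6b1 (-0.38) and Uqcr11 (-0.39) were called lower, and the rest with a core were not called. Atp5md and Atp5k are named here after their values were seen.

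Promoters of 6 members whose values are given below are shown, with NRF1 or ETS letters in capitals: 2 widely used subunits with ETS cores, 2 genes with NRF1 letters, and 2 with neither, of which one belongs to a muscle isoform and the other to the subunit that fell. Their places in GRCm38.p6 are chr4:116075021-116075320 for Uqcrh, chr19:7217567-7217866 for Cox8a, chr5:115348909-115349208 for Cox6a1, chr13:74350191-74350490 for Sdha and chr7:140900397-140900696 for Cox8b, all on the minus strand, and chr17:31519865-31520164 for Ndufv3 on the plus strand. Each is written 5′ to 3′ along its gene. The Cox6a1 promoter held 2 NRF1 matches and 1 ETS core, that of Sdha 3 NRF1 matches, that of Uqcrh 1 ETS core and that of Cox8a 2 ETS cores.
Uqcrh: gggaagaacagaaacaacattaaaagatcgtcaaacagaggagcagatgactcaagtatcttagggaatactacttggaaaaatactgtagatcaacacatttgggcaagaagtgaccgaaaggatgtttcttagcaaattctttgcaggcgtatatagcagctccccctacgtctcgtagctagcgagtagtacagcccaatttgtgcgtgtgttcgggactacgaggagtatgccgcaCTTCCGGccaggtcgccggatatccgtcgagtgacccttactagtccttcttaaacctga
Cox8a: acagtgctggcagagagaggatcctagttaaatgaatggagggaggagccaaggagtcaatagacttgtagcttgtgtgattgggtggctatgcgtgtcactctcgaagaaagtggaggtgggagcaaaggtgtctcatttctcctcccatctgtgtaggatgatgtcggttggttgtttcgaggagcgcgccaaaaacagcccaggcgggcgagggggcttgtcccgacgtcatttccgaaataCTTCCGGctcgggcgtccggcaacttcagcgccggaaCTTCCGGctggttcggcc
Cox6a1: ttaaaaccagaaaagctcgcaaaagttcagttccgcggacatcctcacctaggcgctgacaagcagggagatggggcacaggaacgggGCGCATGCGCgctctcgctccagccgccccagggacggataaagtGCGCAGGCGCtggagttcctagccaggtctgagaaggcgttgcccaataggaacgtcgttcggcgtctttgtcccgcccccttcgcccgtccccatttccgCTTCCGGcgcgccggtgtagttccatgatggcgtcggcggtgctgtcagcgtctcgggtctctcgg
Sdha: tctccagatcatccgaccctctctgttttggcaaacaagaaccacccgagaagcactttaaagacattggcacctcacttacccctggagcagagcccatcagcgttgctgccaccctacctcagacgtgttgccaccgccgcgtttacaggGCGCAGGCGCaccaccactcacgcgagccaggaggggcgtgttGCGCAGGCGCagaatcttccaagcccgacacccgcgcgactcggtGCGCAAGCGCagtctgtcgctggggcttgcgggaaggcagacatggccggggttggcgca
Cox8b: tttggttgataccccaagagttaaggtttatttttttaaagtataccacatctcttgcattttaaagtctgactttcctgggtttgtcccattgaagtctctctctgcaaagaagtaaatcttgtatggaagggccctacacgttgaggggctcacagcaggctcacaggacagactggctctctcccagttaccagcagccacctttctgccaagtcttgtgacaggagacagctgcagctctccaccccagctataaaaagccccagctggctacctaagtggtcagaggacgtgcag
Ndufv3: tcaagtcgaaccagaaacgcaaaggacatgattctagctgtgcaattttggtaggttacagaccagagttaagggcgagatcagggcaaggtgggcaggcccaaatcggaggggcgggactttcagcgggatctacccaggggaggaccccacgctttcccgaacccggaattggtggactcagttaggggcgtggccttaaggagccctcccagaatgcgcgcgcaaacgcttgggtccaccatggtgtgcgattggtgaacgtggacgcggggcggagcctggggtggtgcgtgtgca
A match is a run of letters and not a measured binding site, and the windows of Cox8b and Ndufv3 only lacked these letters.

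Libraries held 16251986 to 33880690 counts at 2 years and 23622803 to 27417541 at 12 weeks, and levels are given as CPM (counts scaled to a library of 1e+06 with edgeR's TMM factors). Smooth muscle markers, which define the tissue, summed to 19901 to 29274 CPM at 2 years and 34647 to 41358 CPM at 12 weeks, with 7 of 10 called lower at 2 years. All 12 macrophage markers were called higher, with sums of 2815 to 4235 CPM at 2 years and 709.5 to 1000 CPM at 12 weeks. All 10 lymphocyte markers were higher too, with sums of 265 to 1264 CPM at 2 years and 3.89 to 7.16 CPM at 12 weeks, as were all 7 tested red blood cell markers. Jchain, named after its values were seen, was the largest part of the lymphocyte sum in every mouse at 2 years (208 to 1095 CPM). The part of these cell mixtures in the values below was not tested.

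Of the 110 members, 104 passed the count filter and were tested. The 6 others were the testis isoforms Cox7b2 and Cox8c, Ndufb11b and Atp5o_1, which had no count in any library, the pseudogene Cox5b-ps, with 0 to 2 counts, and the muscle isoform Cox6a2, described with the isoforms. edgeR's quasi-likelihood F test was run over all 13978 genes that passed the count filter, and a gene is called higher or lower, and said to have risen or fallen, when its Benjamini-Hochberg adjusted p was below 0.05. Over all those genes, 25.8% were called higher and 26.2% lower at 2 years, and the median log2 fold change was -0.01.

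Nuclear-encoded members rose together, and mitochondrial-encoded members did not. Of the 91 tested nuclear members, 75 were higher at 2 years, 1 was lower and 15 were not called, and their median log2 fold change was 0.66, or 1.58-fold. The calls ran from a log2 fold change of 0.33 to 1.34, and 7 members reached 1 or more. All 4 mice at 2 years stood above all 4 at 12 weeks in 69 of the 91, against 24.3% of all tested genes, and in 0 of the 91 did they stand below, against 25.3% of all tested genes. Of the 13 mitochondrial members, 2 were higher, 2 lower and 9 not called, with a median of -0.11. A mitochondrial message below means the counts of a single annotated gene, whether or not it shares an RNA with a neighbour.

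The nuclear members were short, and fold changes in these libraries ran against length. The median length of the nuclear members was 918 nt, against 3175 nt over all tested genes, and over all tested genes with a length the log2 fold change ran against transcript length (Spearman rho -0.42 over 13781 genes, which are not independent). Among the 89 nuclear members with a length, rho was -0.44, with 41 of the 45 shorter members and 32 of the 44 longer ones called higher. With an offset that takes each library's trend over all genes with length and GC content out of the counts, rho was 0.04 over all genes and 0.56 among the nuclear members, so the members then ran the other way. With it, 8 nuclear members were called higher and 20 lower out of 89, where 22.8% of all genes were called higher and 27.9% lower, and the median was -0.04. Of the members called higher without the offset, 16 were called lower with it and 44 changed sign. The directions below hold on the scale of the counts, and calls that the offset turned or ended are given as such with the gene or list. What produced the trend with length was not tested.

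**Figure D1:**
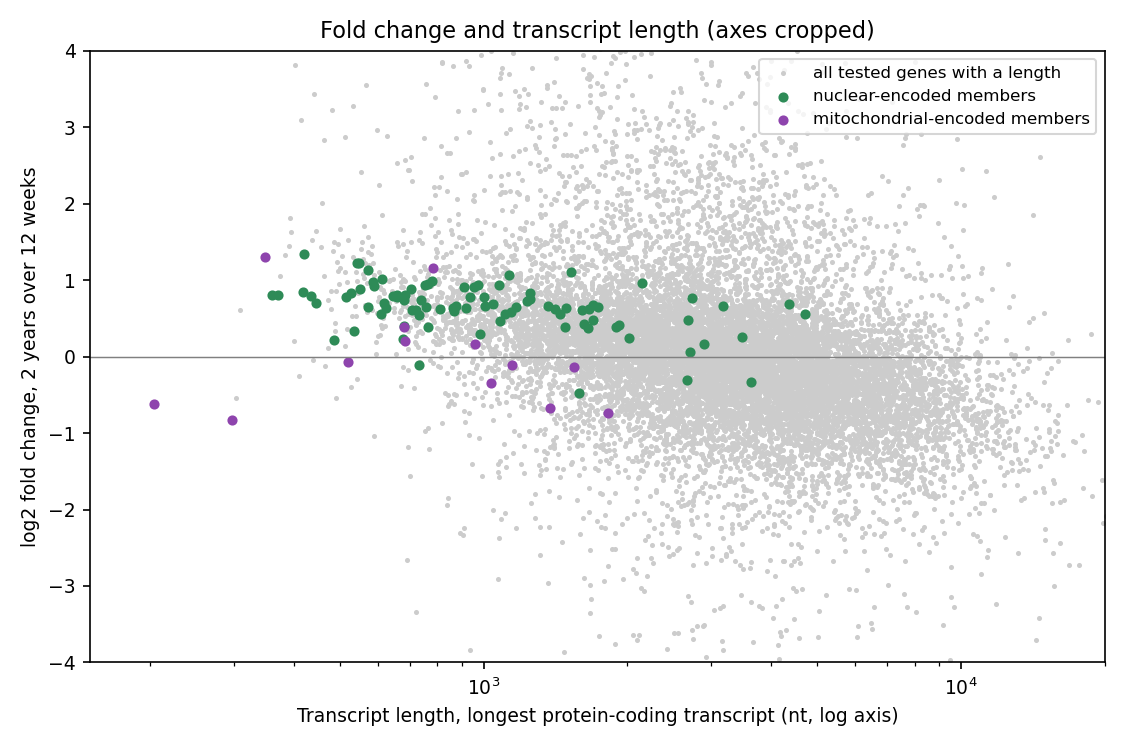
Log2 fold change of 2 years over 12 weeks (vertical axis) against the length of the longest protein-coding transcript in nt (horizontal log axis), for all tested genes in grey, nuclear-encoded members in green and mitochondrial-encoded members in purple. Nuclear members gather at the short end above 0, with a median length of 918 nt against 3175 nt over all tested genes.

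Counted as a share of the library, nuclear members took 0.758%, 0.890%, 0.816% and 0.675% of counts in replicates 1 to 4 at 2 years, against 0.500%, 0.421%, 0.557% and 0.496% at 12 weeks. The ages did not overlap, and the means were 0.785% ± 0.0908 at 2 years and 0.494% ± 0.0555 at 12 weeks (SD, n = 4 each). Mitochondrial members took 5.48%, 5.94%, 10.3% and 4.14% of counts at 2 years, against 6.11%, 7.33%, 6.50% and 4.78% at 12 weeks. Replicate 3 at 2 years was high and the other libraries of both ages lay among each other. There were 8.16 ± 3.00 mitochondrial counts for each nuclear member count at 2 years and 12.7 ± 3.30 at 12 weeks, and these ranges overlapped, since replicate 3 at 2 years had 12.6. Per length, in TPM over genes with a length, a CPM divided by transcript length and rescaled, the median mitochondrial message was at 8692 TPM at 2 years and 12013 TPM at 12 weeks, and the median nuclear member at 137 TPM at 2 years and 107 TPM at 12 weeks. The nuclear member highest by that measure at 2 years, Cox4i1, was at 852 ± 101 TPM at 2 years and 537 ± 56.1 TPM at 12 weeks, and at 2 years it exceeded 1 mitochondrial message, mt-Nd6 (689 TPM). At 12 weeks Atp5b stood above it, at 600.6 ± 142 TPM.

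The summed nuclear members of every complex were higher at 2 years on the count scale. Complex I summed to 2252 ± 304 CPM at 2 years and 1509 ± 102 CPM at 12 weeks, a ratio of 1.49. For complex II the sums were 532 ± 43.4 CPM at 2 years and 394 ± 49.8 CPM at 12 weeks (ratio 1.35), and for complex III 690.4 ± 102 CPM at 2 years and 431 ± 42.3 CPM at 12 weeks (ratio 1.60). Complex IV had the highest ratio of the 5, at 1.74, from 1550 ± 266 CPM at 2 years and 893 ± 68.2 CPM at 12 weeks. Complex V summed to 2738 ± 278 CPM at 2 years and 1758 ± 170 CPM at 12 weeks, a ratio of 1.56. No sum at 2 years fell within the range at 12 weeks, and these sums were not tested. The sums hold the Ndufaf assembly factors in complex I and the supercomplex factor Cox7a2l in complex IV. The counts and medians of subunits leave these genes out. The order of the complexes holds on the count scale only. Median length was 652 nt for the tested subunits of complex IV and 2065.5 nt for those of complex II. With the offset, complex IV had the lowest median log2 fold change of the 5 (-0.29), and complex II was at 0.03.

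**Figure D2:**
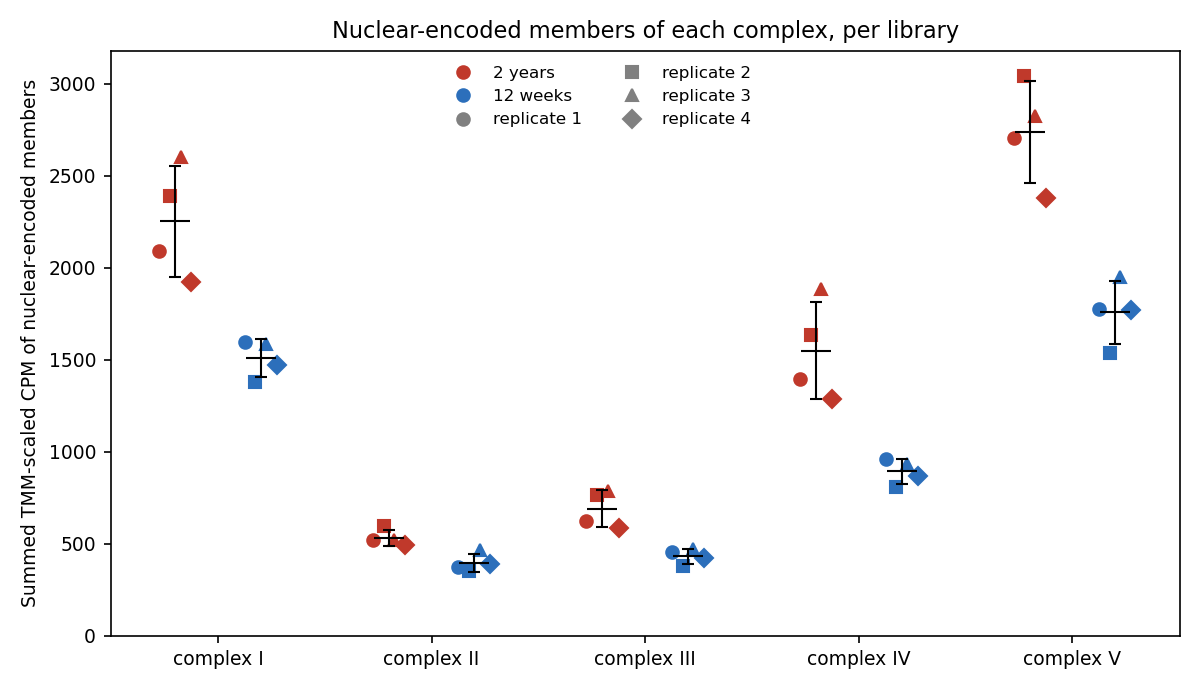
Summed TMM-scaled CPM of the nuclear-encoded members of each complex (vertical axis) in every library, 2 years in red to the left of 12 weeks in blue; bars are the mean and SD of 4 libraries and marker shapes are replicates. All 4 libraries at 2 years lie above all 4 at 12 weeks in each complex, and complex IV has the highest ratio of means, 1.74, without the length and GC offset.

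Complex I takes electrons from NADH. Of its 37 tested nuclear subunits, 32 were higher, 1 lower and 4 not called (median log2 fold change 0.66); with the offset, 3 of 36 were higher and 8 lower (median -0.07). The 7 core subunits, which carry the flavin and the iron-sulfur clusters, had 5 higher (median 0.63), and the 30 accessory subunits around them had 27 higher and 1 lower (median 0.72). With the offset 1 core subunit was lower and none higher (median -0.01). Of 29 accessory subunits, 3 were then higher and 7 lower (median -0.14), so the order of these medians turned. Ndufb8, an accessory subunit of the membrane arm, was at 90.6, 112, 109.95 and 78.9 CPM at 2 years, against 52.0, 43.4, 55.6 and 50.0 CPM at 12 weeks. It rose by 0.96 ± 0.15 on the log2 scale (SE, edgeR adjusted p = 0.000275) and was also higher with the offset (0.60, adjusted p = 0.00335, edgeR), but not when its transcript length was taken as 680 nt in place of 2142 nt (0.19, adjusted p = 0.197). Every mouse at 2 years exceeded every mouse at 12 weeks for this gene.

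Ndufb4, another membrane-arm subunit, was at 43.1, 52.1, 58.9 and 38.3 CPM at 2 years, against 26.9, 25.5, 25.2 and 22.5 CPM at 12 weeks (0.94 ± 0.15, adjusted p = 0.000355). Ndufa2, an accessory subunit of the matrix arm, was at 43.3, 54.2, 68.7 and 44.7 CPM at 2 years, against 29.8, 18.9, 22.0 and 25.5 CPM at 12 weeks (1.13 ± 0.18, adjusted p = 0.000451). Neither overlapped between ages, and neither was called with the offset (0.16 and 0.01). Ndufv3, a subunit of the NADH-oxidising arm, was the exception. It stood at 59.5, 52.4, 79.6 and 67.0 CPM at 2 years, against 78.4, 101, 92.1 and 88.3 CPM at 12 weeks, with only replicate 3 at 2 years above the lowest mouse at 12 weeks. It fell by 0.48 ± 0.15 on the log2 scale (adjusted p = 0.0183), and by 0.88 with the offset (adjusted p = 0.000826, edgeR). Its call without the offset was lost when replicate 2 at 12 weeks (adjusted p = 0.0539) or replicate 1 at 2 years (adjusted p = 0.0517) was left out of the edgeR fit.

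Assembly of complex I needs factors that do not stay in it. Of the 8 Ndufaf genes, 4 were higher and none lower (median 0.42); with the offset, none was higher and 1 lower. Ndufaf5, which hydroxylates the Ndufs7 subunit, was at 9.87, 10.3, 9.30 and 8.06 CPM at 2 years, against 6.68, 5.74, 5.81 and 5.64 CPM at 12 weeks (log2 fold change 0.65 ± 0.15, edgeR adjusted p = 0.00373). Its partner Ndufaf8 was at 9.59, 10.9, 12.4 and 10.4 CPM at 2 years, against 7.47, 3.77, 4.81 and 5.72 CPM at 12 weeks (0.99 ± 0.21, adjusted p = 0.0022). Ndufaf3, which acts early in assembly, had a log2 fold change of 0.64 ± 0.17 (adjusted p = 0.00867). The ages did not overlap in these 3 genes. With the offset all 3 lost the call, and Ndufaf5 changed sign (-0.07).

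Complex II, succinate dehydrogenase, has no mitochondrial-encoded subunit. Sdhb, its iron-sulfur subunit, was at 67.5, 70.1, 80.8 and 64.5 CPM at 2 years, against 45.5, 38.9, 61.0 and 43.6 CPM at 12 weeks (log2 fold change 0.58 ± 0.15, edgeR adjusted p = 0.00802). The membrane anchors moved likewise, Sdhc by 0.66 ± 0.14 (adjusted p = 0.00205) and Sdhd by 0.72 ± 0.16 (adjusted p = 0.00322), and in these 3 genes the ages did not overlap. Sdha, the flavoprotein that binds succinate, was at 234, 246, 180 and 229 CPM at 2 years, against 169, 183, 242 and 195 CPM at 12 weeks. Those ranges crossed and it was not called (0.17 ± 0.15, adjusted p = 0.364), though with both replicates 3 left out it was (0.38, adjusted p = 0.0344, edgeR). With the offset only Sdhc stayed higher (0.56, adjusted p = 0.00457), and Sdhb changed sign at -0.04.

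Complex III passes electrons from ubiquinol to cytochrome c. All 8 of its nuclear genes had positive fold changes and 7 were higher (median 0.68); with the offset none was higher and 3 were lower. Uqcrh, the hinge protein that contacts cytochrome c1, was at 151, 201, 219 and 130.4 CPM at 2 years, against 83.6, 72.3, 71.0 and 73.5 CPM at 12 weeks. It rose by a log2 fold change of 1.22 ± 0.17 (adjusted p = 0.00016), with no overlap between ages, and was at 0.04 with the offset and not called. Uqcrq, a small membrane-bound subunit, was at 41.4, 52.3, 71.9 and 43.6 CPM at 2 years, against 35.7, 15.9, 23.3 and 22.3 CPM at 12 weeks (1.10 ± 0.25, adjusted p = 0.00344; 0.56 with the offset, adjusted p = 0.056, edgeR). Uqcr11, a small membrane subunit, rose by 0.69 ± 0.17 (adjusted p = 0.00637) without the offset and fell by 0.39 (adjusted p = 0.00264, edgeR) with it.

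Complex IV, cytochrome c oxidase, reduces oxygen. Of 16 tested nuclear subunits 12 were higher and none lower (median 0.76), and with the offset none was higher and 6 were lower (median -0.29). Cox4i1, the common isoform of the subunit through which ATP regulates the enzyme, was at 283, 329, 384 and 232 CPM at 2 years, against 157, 152, 172 and 157 CPM at 12 weeks. It rose by 0.95 ± 0.16 (adjusted p = 0.000552) without overlap, and was not called with the offset (0.15). Cox7b, a membrane subunit, was at 80.1, 85.6, 105 and 72.4 CPM at 2 years, against 55.5, 46.1, 51.1 and 46.4 CPM at 12 weeks (0.79 ± 0.14, adjusted p = 0.000806; -0.04 with the offset).

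Cox7a2l, a relative of Cox7a2 that joins complexes III and IV into supercomplexes, was among the most changed. It was at 188, 242, 248 and 170.3 CPM at 2 years, against 105, 102, 93.3 and 105 CPM at 12 weeks, so that the lowest mouse at 2 years stood well above the highest at 12 weeks. It rose by 1.07 ± 0.15 on the log2 scale (adjusted p = 0.000147) and was higher with the offset too (0.33, adjusted p = 0.0172, edgeR), a call that ended when the replicate numbers were added as a block (adjusted p = 0.0591). Ndufa4, now placed in complex IV, rose by 0.56 ± 0.13 (adjusted p = 0.0035) without the offset and fell by 0.57 (adjusted p = 0.00117) with it.

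Complex V makes ATP. Of 17 tested nuclear members 16 were higher and none lower (median 0.74); with the offset 3 of 16 were higher and 2 lower (median 0.09). Atp5l, subunit g of the membrane part, was at 156, 192, 201 and 127 CPM at 2 years, against 87.1, 64.6, 70.7 and 67.1 CPM at 12 weeks (1.22 ± 0.17, edgeR adjusted p = 0.000147). Atp5h, subunit d of the peripheral stalk, was at 157, 175, 194 and 147 CPM at 2 years, against 98.9, 105, 99.9 and 99.9 CPM at 12 weeks (0.74 ± 0.12, adjusted p = 0.000519). In both genes all mice at 12 weeks lay below all mice at 2 years, and for Atp5h the 12-week mice lay close to each other.

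With the offset Atp5l was not called (0.03) and Atp5h was called lower (-0.29, adjusted p = 0.0169). Atp5o_2, an entry for the stalk subunit that confers oligomycin sensitivity, was at 98.5, 110.2, 129 and 94.4 CPM at 2 years, against 61.8, 58.8, 69.2 and 63.0 CPM at 12 weeks (0.77 ± 0.13, adjusted p = 0.000573); it had no length and stayed out of the offset. The files list a second entry, Atp5o_1, at 0 throughout. The catalytic beta subunit Atp5b was not called, with 589.6 ± 77.3 CPM at 2 years and 444 ± 82.0 CPM at 12 weeks (adjusted p = 0.0553, edgeR; it is named here because it was the 1 member of complex V without a call).

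**Figure D3:**
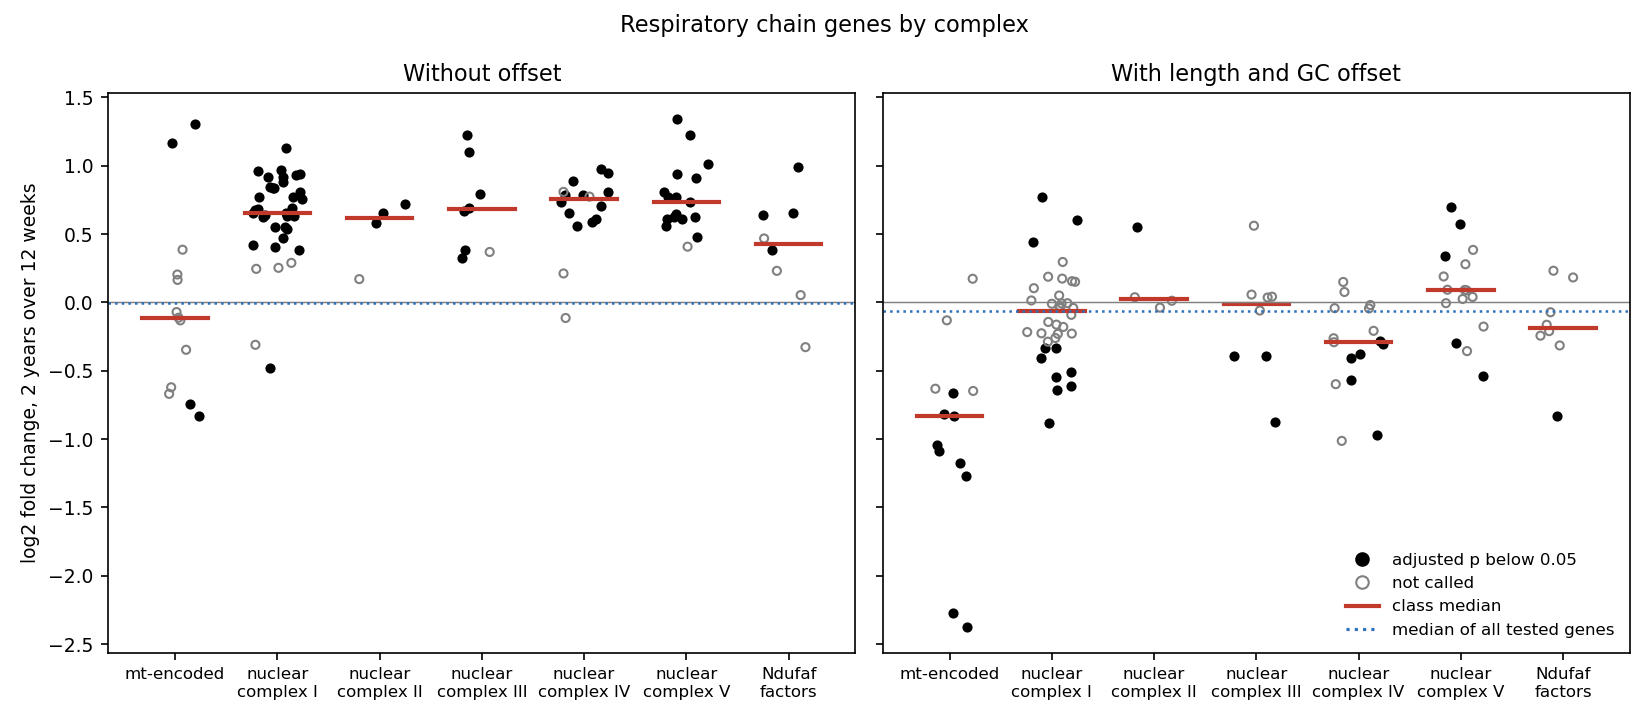
Log2 fold change of 2 years over 12 weeks (vertical axis) for the tested members by class. The left panel is without the offset and the right panel with the length and GC offset. The supercomplex factor Cox7a2l is in no class and is not drawn. Filled points had an edgeR adjusted p below 0.05, red bars are class medians and the dotted line is the median of all tested genes. Nuclear classes lie above 0 on the left (overall median 0.66) and around 0 on the right (-0.04), and the mitochondrial-encoded median moves to -0.83.

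The 13 mitochondrial messages did not move as a block. The higher pair were mt-Nd3, a core subunit of complex I, and mt-Co3, a core subunit of complex IV. mt-Nd3 was at 1121, 1495, 2555 and 699.7 CPM at 2 years, against 646, 741, 608 and 383 CPM at 12 weeks (log2 fold change 1.30 ± 0.36, edgeR adjusted p = 0.0114). mt-Co3 was at 8587, 9953, 17360 and 4853 CPM at 2 years, against 5511, 4965, 4257 and 3458 CPM at 12 weeks (1.16 ± 0.33, adjusted p = 0.0123). In both, only replicate 4 at 2 years fell within the range at 12 weeks. The mt-Co3 call was lost when both replicates 3 were left out (0.75, adjusted p = 0.053).

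The lower pair were complex I subunits encoded further along the strand. mt-Nd4l was at 519.7, 460.0, 715 and 446 CPM at 2 years, against 950.0, 1064, 989 and 797 CPM at 12 weeks. It fell by 0.83 ± 0.18 on the log2 scale (adjusted p = 0.00265) and was the 1 mitochondrial message whose ages did not overlap. mt-Nd5 was at 1871, 1829, 3206 and 1967 CPM at 2 years, against 3093, 5265, 3794 and 2704 CPM at 12 weeks, and only replicate 3 at 2 years crossed into the 12-week range. It fell by 0.74 ± 0.25 (adjusted p = 0.0287), a call lost in the edgeR fit when replicate 2 (adjusted p = 0.0994) or 3 (0.0571) at 12 weeks or replicate 1 (0.0727), 2 (0.0679) or 4 (0.0633) at 2 years was left out.

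Replicate 3 at 2 years had the highest level of all 4 mice of its age in 13 of 13 mitochondrial messages and in 67 of 91 nuclear members, and it was also the shallowest library, with 16251986 counts. Its summed markers of fat cells were 1876 CPM, against 686 to 1121 in the other mice at 2 years and 512 to 1296 at 12 weeks; whether they bear on the mitochondrial values was not tested. Without it 6 messages were lower, the mitochondrial median was -0.52 and the nuclear median 0.60. The messages that gained the call were mt-Nd2 (-0.74, adjusted p = 0.0191), mt-Nd4 (-1.04, adjusted p = 0.00229), mt-Nd6 (-0.89, adjusted p = 0.0209) and mt-Cytb (-0.52, adjusted p = 0.0222), all in the edgeR fit. The coefficient of variation over the 4 mice of an age had a median of 48.6% at 2 years and 23.0% at 12 weeks for mitochondrial messages, and of 16.3% at 2 years and 13.4% at 12 weeks for nuclear members.

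With the length and GC offset no mitochondrial message was higher and 9 were lower (median -0.83), and mt-Nd3 (-0.13), mt-Co2 (-0.83), mt-Nd1 (-0.65) and mt-Atp6 (-0.63) changed sign. mt-Atp8, the shortest mitochondrial member by annotated length (204 nt), was at 777, 497, 933 and 306 CPM at 2 years, against 586, 1783, 1069 and 425 CPM at 12 weeks. Its log2 fold change was -2.27 with the offset (adjusted p = 0.000277, edgeR) and -0.62 without it. mt-Atp8 shares 43 bases with mt-Atp6 on the same strand. The offset took annotated gene lengths, which need not be those of the RNA that was counted. mt-Co3 kept a positive value (0.17) and was not called.

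Taken within the mitochondrial pool, where library size and the level of the whole pool drop out, the mix of messages differed between ages. mt-Co3 made up 16.2%, 17.7%, 15.97% and 11.8% of mitochondrial counts at 2 years, against 8.75%, 6.42%, 6.74% and 7.30% at 12 weeks. mt-Nd3 made up 2.12%, 2.66%, 2.35% and 1.71% at 2 years, against 1.02%, 0.958%, 0.963% and 0.809% at 12 weeks. The share of mt-Atp6, a membrane subunit of ATP synthase, was 12.6% ± 1.21 at 2 years and 10.1% ± 0.38 at 12 weeks. In these 3 the ages did not overlap and 2 years stood above, replicate 3 included.

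Lower shares without overlap were found for mt-Nd2 (4.81% ± 0.258 at 2 years and 6.24% ± 0.744 at 12 weeks), mt-Nd4l (0.887% ± 0.189 at 2 years and 1.53% ± 0.128 at 12 weeks) and mt-Nd4 (7.46% ± 1.07 at 2 years and 12.0% ± 1.02 at 12 weeks). The mt-Nd5 share was 3.64% ± 0.815 at 2 years and 5.86% ± 0.784 at 12 weeks, again without overlap. The other 6 messages overlapped, among them mt-Co1, the largest at 22.9% ± 1.89 at 2 years and 25.5% ± 2.28 at 12 weeks. Shares of a whole are bound to each other, so they were described and not tested.

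A pair of neighbours in the genome went different ways. mt-Nd3 and mt-Nd4l are divided by a single tRNA gene, and the ratio of their counts was 2.64 ± 0.935 at 2 years and 0.618 ± 0.0982 at 12 weeks, with 1.57 as the lowest value at 2 years and 0.697 as the highest at 12 weeks. The ratio of mt-Co3 to mt-Co2 counts was 1.57 ± 0.387 at 2 years and 0.803 ± 0.124 at 12 weeks, and did not overlap either. These genes have mt-Atp8 and mt-Atp6 between them. mt-Co3 and mt-Co2 had positive log2 fold changes (1.16 and 0.20), and mt-Co2 was not called. Of the genes between them, mt-Atp8 was at -0.62 and mt-Atp6 at 0.39, and neither was called. In the GRCm38 annotation mt-Atp8 shares 43 bases with mt-Atp6, mt-Nd4l shares 7 with mt-Nd4 and mt-Nd5 shares 14 with mt-Nd6 on the other strand. How the counting treated such bases, strand, and nuclear copies of mitochondrial sequence is not stated in the labels or files, so the levels of these overlapping genes, mt-Nd6 above all, are uncertain. The annotated lengths of the mitochondrial genes also run from 204 to 1824 nt, and the part of length in these ratios was not tested.

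**Figure D4:**
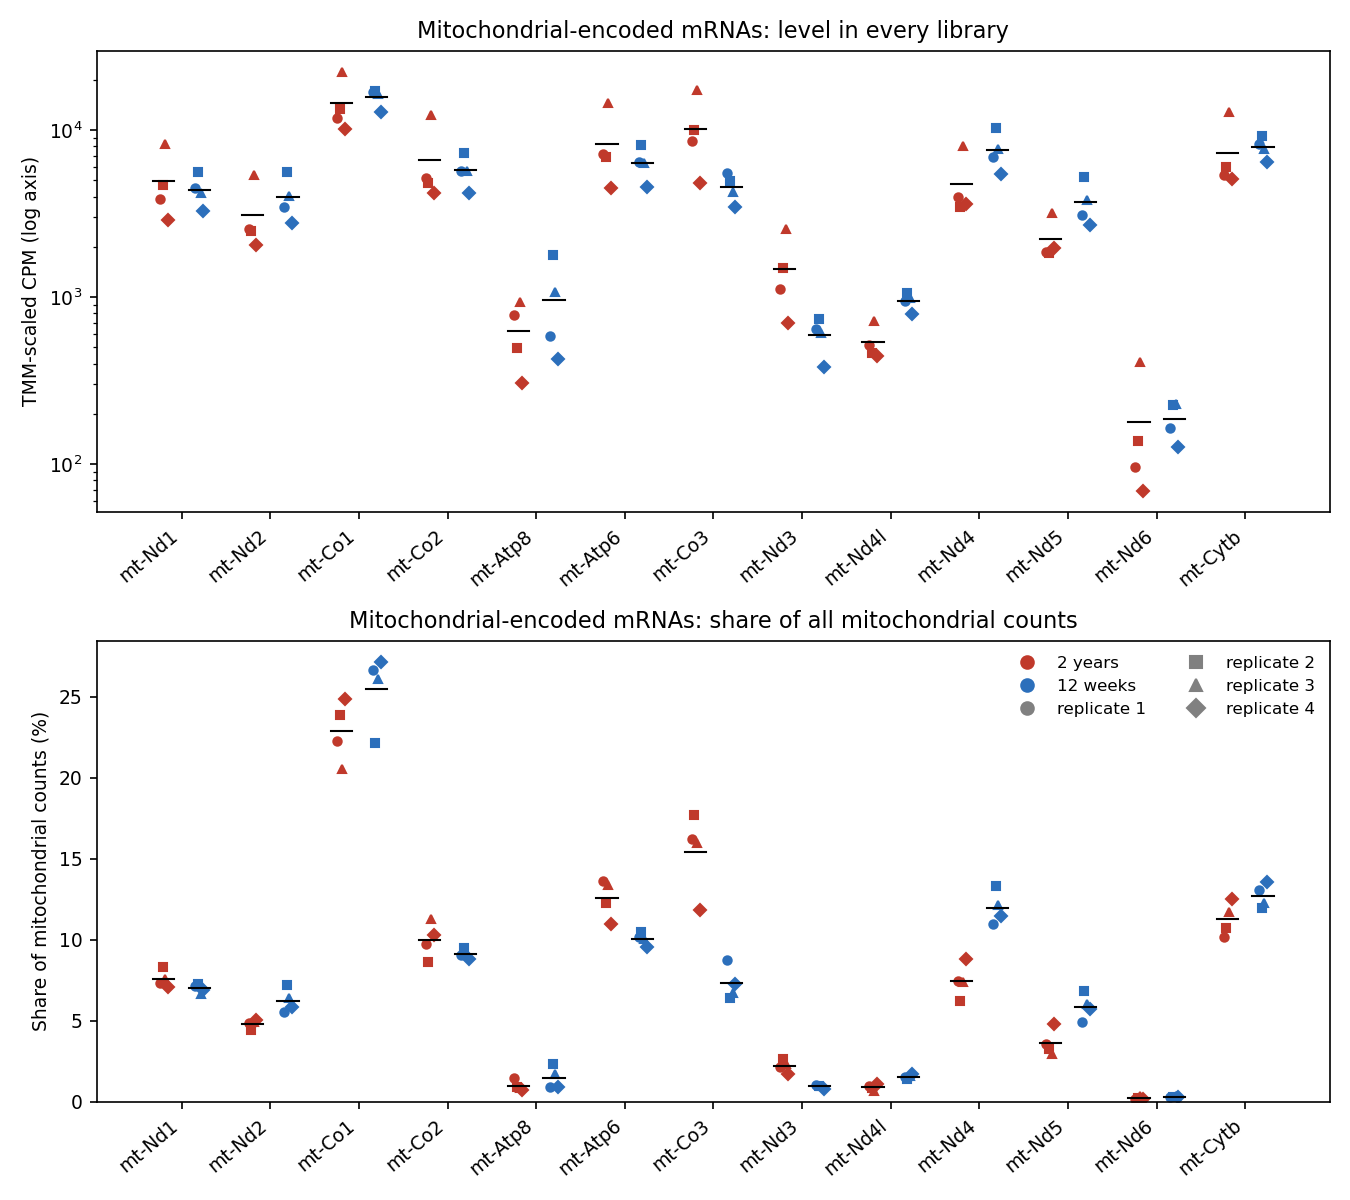
TMM-scaled CPM (top, log axis) and share of mitochondrial counts in percent (bottom) of each mitochondrial-encoded message in every library, in genome order; 2 years in red stands left of 12 weeks in blue, shapes are replicates and bars are means. In the lower panel mt-Co3 and mt-Nd3 lie higher at 2 years, with means of 15.4% and 2.21% against 7.30% and 0.939% at 12 weeks, while mt-Nd4, mt-Nd4l and mt-Nd5 lie lower.

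Among complex IV isoforms, the widely used ones rose. Among the mice at 12 weeks, those used in heart, skeletal muscle or brown fat were highest in replicate 3. Cox6a1 was at 127, 143, 160.1 and 124 CPM at 2 years, against 99.5, 69.8, 88.4 and 94.7 CPM at 12 weeks (0.65 ± 0.14, edgeR adjusted p = 0.0031). Cox7a2 was at 72.5, 84.9, 91.7 and 66.5 CPM at 2 years, against 53.6, 37.0, 44.1 and 45.7 CPM at 12 weeks (0.81 ± 0.15, adjusted p = 0.00107). Cox8a was at 105, 134, 145 and 105 CPM at 2 years, against 88.7, 48.1, 65.4 and 61.8 CPM at 12 weeks (0.89 ± 0.19, adjusted p = 0.00248), and Cox6b1 rose by 0.70 ± 0.14 (adjusted p = 0.00143). The ages did not overlap in these 4, and with the offset all 4 changed sign (-0.26, -0.21, -0.04 and -0.38), with Cox6b1 called lower (adjusted p = 0.00723, edgeR).

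Their counterparts in heart and skeletal muscle were low. Cox6a2 had 21, 7, 6 and 9 counts at 2 years, against 2, 26, 216 and 7 counts at 12 weeks, so that replicate 3 at 12 weeks held most of its counts. Cox7a1, also used in brown fat, was at 2.62, 0.853, 7.48 and 3.16 CPM at 2 years, against 1.75, 0.732, 7.95 and 1.5 CPM at 12 weeks (0.21 ± 0.80, adjusted p = 0.838). Cox8b, used in muscle and brown fat, was at 5.76, 5.12, 17.0 and 5.69 CPM at 2 years, against 3.28, 1.00, 11.7 and 2.84 CPM at 12 weeks (0.81 ± 0.72, adjusted p = 0.371). For Cox7a1 and Cox8b the replicates 3 of both ages were the high libraries, and with the offset both genes had negative values and were not called (-1.01 and -0.60).

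Cox8b was called higher at 2 years when replicate 3 at 12 weeks was left out (1.80, adjusted p = 0.022) and when both replicates 3 were (1.23, adjusted p = 0.0235). Heart muscle markers were high in replicate 3 at 12 weeks and not in replicate 3 at 2 years (194 CPM in sum). Of 13 tested, 8 were lower at 2 years and none higher, and their sum was 145 to 220 CPM at 2 years against 280 to 334 CPM in 3 mice at 12 weeks and 1480 CPM in replicate 3 of that age. In that library Myh6, a heart myosin, stood at 428 CPM, against 0.729 to 8.73 CPM at 2 years and 6.77 to 19.8 CPM in the other mice at 12 weeks. Ryr2 was the largest part of the sum in the other mice at 12 weeks. It was at 24.7 ± 8.46 CPM at 2 years and 163 ± 18.3 CPM at 12 weeks (-2.72, edgeR adjusted p = 8.95e-06). Tnnt2 went the other way without a call, at 105 ± 26.6 CPM at 2 years and 72.1 ± 31.5 CPM at 12 weeks (0.55). The sum is thus not a measure of heart tissue alone. Myl3 was at 0 in replicates 2, 3 and 4 at 2 years, and no other of the 13 was at 0 in a library.

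Brown fat markers summed to 99.2 to 256.6 CPM at 2 years and 276 to 442 CPM at 12 weeks, highest in replicate 3 of each age, and 2 of 8 tested were lower at 2 years. Prdm16, called lower, was the largest part of the sum in every mouse at 12 weeks. It was at 66.7 ± 15.9 CPM at 2 years and 189 ± 17.2 CPM at 12 weeks (-1.50, edgeR adjusted p = 5.96e-05). The 6 others were not called, among them Cidea (0.10) and Ucp1 (-0.27). Ucp1, the brown fat uncoupling protein, was at 14.2, 5.25, 26.6 and 19.7 CPM at 2 years, against 10.5, 1.12, 60.0 and 6.93 CPM at 12 weeks, and none of the 8 was at 0 in a library. Skeletal muscle markers summed to 3.06 to 56.9 CPM at 2 years and 4.41 to 332 CPM at 12 weeks, and were highest in replicate 2 at 12 weeks; Myh4 and Pvalb were at 0 in replicate 4 at 2 years and replicate 1 at 12 weeks, and Myh1 in replicate 2 at 2 years. The part of such tissue in the isoform values was not tested.

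**Figure D5:**
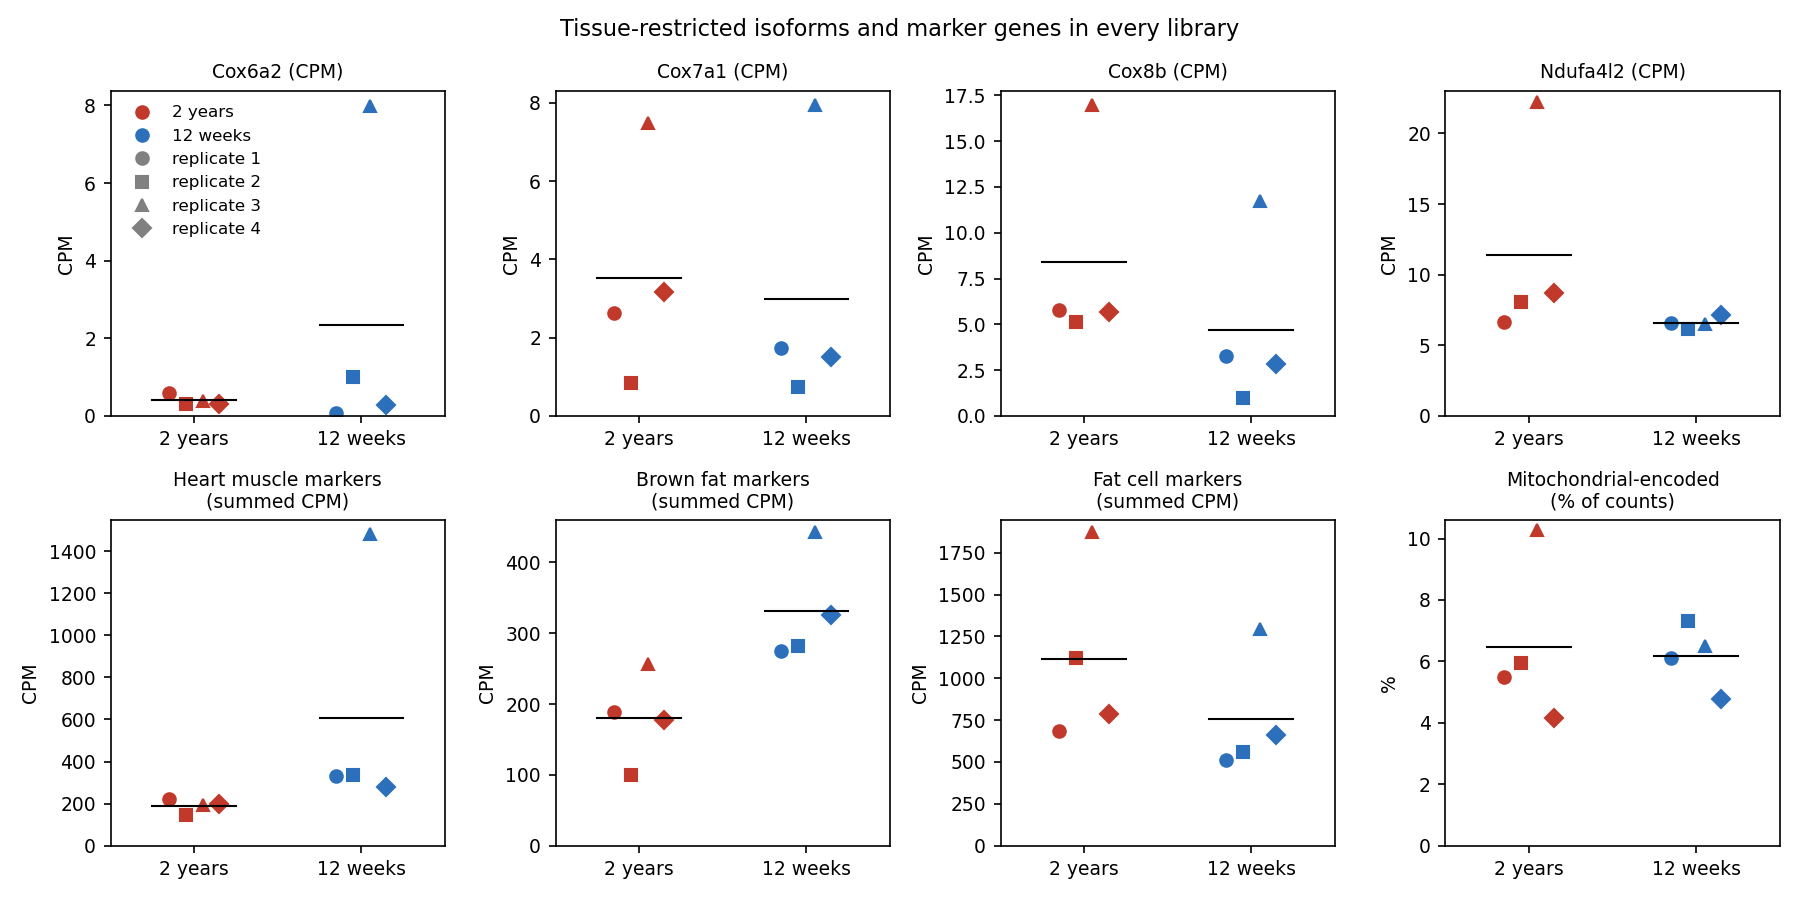
Levels of 4 tissue-restricted or oxygen-linked isoforms in TMM-scaled CPM, summed CPM of heart muscle, brown fat and fat cell markers, and the percent of counts from mitochondrial-encoded members, in every library; 2 years in red stands left of 12 weeks in blue, shapes are replicates and bars are means. Replicate 3 of each age (triangles) is the high library for Cox7a1 and Cox8b, and replicate 3 at 12 weeks for Cox6a2 (7.99 CPM) and the heart muscle markers (1480 CPM).

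The oxygen-linked isoforms were not called. Cox4i2, the isoform of lung and of low oxygen, was at 3.31, 3.45, 4.75 and 4.27 CPM at 2 years, against 2.93, 3.89, 4.99 and 5.19 CPM at 12 weeks (-0.11 ± 0.24, edgeR adjusted p = 0.71), and was lower with the offset (-0.97, adjusted p = 0.0092). Ndufa4l2, which is induced by low oxygen and replaces Ndufa4, was at 6.62, 8.06, 22.2 and 8.68 CPM at 2 years, against 6.55, 6.16, 6.51 and 7.14 CPM at 12 weeks (0.77 ± 0.34, adjusted p = 0.078). Replicate 3 at 2 years stood apart, and the gene was called with DESeq2 (adjusted p = 0.0425) and without replicate 1 at 2 years (adjusted p = 0.03, edgeR). Cox6b2, the testis isoform, was at 2.00, 2.86, 5.14 and 4.17 CPM at 2 years, against 2.58, 1.27, 1.55 and 1.74 CPM at 12 weeks (0.98 ± 0.35, adjusted p = 0.0336). That call was lost without replicate 2, 3 or 4 at 12 weeks (adjusted p = 0.0919, 0.0791 and 0.0715) or replicate 3 or 4 at 2 years (0.0847 and 0.0795), and the value was -0.02 with the offset.

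Genes outside the set that feed or build the chain were counted in the same fit. Over all tested genes 25.8% were called higher and 26.2% lower, and with the offset 22.8% and 27.9%. Of 9 mobile electron carriers and electron transfer flavoproteins, 2 were higher: Etfb, at 71.6 ± 14.8 CPM at 2 years and 39.9 ± 9.65 CPM at 12 weeks (0.84, edgeR adjusted p = 0.00368), and Sqor, which oxidises sulfide, at 60.5 ± 7.41 CPM at 2 years and 38.5 ± 3.33 CPM at 12 weeks (0.65, adjusted p = 0.00143). With the offset neither was called (0.11 for Etfb and 0.26 for Sqor), and Etfdh (-0.59) and Etfa (-0.43), named after their values were seen, were lower. Of 44 tested assembly factors outside the set, 16 were higher and none lower (median 0.21). They included Uqcc2, needed to make cytochrome b, at 38.3 ± 8.94 CPM at 2 years and 17.1 ± 1.77 CPM at 12 weeks (1.16, adjusted p = 0.000192), and Sco2, which brings copper to complex IV, at 7.36 ± 0.694 CPM at 2 years and 3.35 ± 0.697 CPM at 12 weeks (1.13, adjusted p = 0.000823). With the offset 4 of the 44 were higher and 14 lower; Sco2 kept its call (0.72, adjusted p = 0.00414) and Uqcc2 did not (0.14).

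The matrix pathways had 3 calls without the offset. In the citric acid cycle 1 of 18 genes was higher, Mdh2, at 133 ± 5.53 CPM at 2 years and 94.8 ± 17.0 CPM at 12 weeks (0.49, edgeR adjusted p = 0.0135), and the median was -0.04. In mitochondrial fatty acid oxidation 2 of 15 were higher, the carnitine carrier Slc25a20 (0.76, adjusted p = 0.0015) and Hadh (0.42, adjusted p = 0.0491), with a median of 0.05. These 3 were not called with the offset (0.04, 0.32 and -0.02), which called 7 citric acid cycle genes (median -0.21) and 1 fatty acid oxidation gene, Acadm (-0.58, likewise named after its value was seen), lower and none higher. Of 13 genes of ubiquinone synthesis and handling, 1 was higher, Coq10b (0.64, adjusted p = 0.0183), and 3 were lower, among them Coq8a (-0.65, adjusted p = 0.00368; -0.53 with the offset, adjusted p = 0.00958). With the offset Coq10b was not called (0.13), and the list had none higher and 6 lower.

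Of 26 genes that copy and express mitochondrial DNA, 2 were higher and 6 lower (median -0.17), and with the offset 2 were higher and 8 lower. The shares called lower were close to those over all tested genes, 26.2% without the offset and 27.9% with it. Polg, the polymerase that copies mitochondrial DNA, was at 29.9 ± 2.86 CPM at 2 years and 56.7 ± 7.17 CPM at 12 weeks (-0.92, edgeR adjusted p = 0.000168; -0.33 with the offset, adjusted p = 0.0606). Hsd17b10, a subunit of the enzyme that cuts mitochondrial tRNAs from their transcript, was at 49.1 ± 6.56 CPM at 2 years and 31.9 ± 1.12 CPM at 12 weeks (0.62, adjusted p = 0.00146), and was not called with the offset (-0.16).

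Of 15 tested regulators of mitochondrial biogenesis, none was higher and 4 were lower (median -0.28), a share close to the 26.2% of all genes called lower. With the offset 2 stayed lower, while Pprc1 (-0.19) and Yy1 (0.07) lost the call; these 2 were named after their values were seen. Ppargc1a, the coactivator that switches on respiratory genes, was at 2.34, 1.58, 3.45 and 2.78 CPM at 2 years, against 3.41, 5.35, 10.7 and 8.27 CPM at 12 weeks. Replicate 3 at 2 years stood just above replicate 1 at 12 weeks, and otherwise the ages did not overlap. It fell by 1.46 ± 0.35 on the log2 scale (adjusted p = 0.00522) and stayed lower with the offset (-1.08, adjusted p = 0.0261). Ppard, a fatty-acid receptor, was at 20.5 ± 4.94 CPM at 2 years and 33.1 ± 3.60 CPM at 12 weeks (-0.69, adjusted p = 0.00632; -0.52 with the offset, adjusted p = 0.00752).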

How the data were processed

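RNA of aorta from 4 mice at 2 years and 4 at 12 weeks was sequenced on an Illumina NovaSeq instrument, per the labels. The authors deposited raw counts per gene symbol, 1 table a library, and the build is GRCm39, per the submitters' processing notes; which aligner, counter, annotation and strand setting were used is not given in the sources used here. Each library was taken as 1 mouse, as the design text's n of 4 an age reads; the labels name no animal, so p-values measure the spread between these samples. No pair of libraries agreed within sampling noise (chi-square per degree of freedom 20.1 to 130).

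Counts were filtered with filterByExpr, TMM-scaled and tested with edgeR 4.0.16 (R 4.3.3) by a quasi-likelihood F test with age as the term and Benjamini-Hochberg adjustment over 13978 genes; counts, medians and sums over members got no p. limma 3.58.1 and DESeq2 1.42.0 were alternatives, with other scalings, no filter, a replicate block, mice left out, and an offset from natural splines (4 degrees of freedom) on log2 transcript length and GC content of GENCODE M21 (13781 genes). The fit and offset were tested on simulated data. Named genes were the mitochondrial messages, complex II, tissue isoforms, up to 3 called members a complex and direction with the smallest p, and up to 2 per pathway list, where 1 called gene gave 1; exceptions are marked. Members and lists were chosen with earlier results of these data known. The inhibitor Atp5if1 is not listed under that symbol.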

Additional observations from a re-analysis of the deposited data

Results flagged for a closer look

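In 12 of 88 sets of 4 mice of an age, 1 mouse lay far from the nearest other for the range of its group (Dixon's ratio above 0.829). Chance alone flags about 1 in 20 such sets, and members of a library are not independent. Replicate 3 at 2 years was the high mouse for mt-Nd2 (5364 CPM), mt-Co2 (12241 CPM), mt-Nd4 (8009 CPM), mt-Nd5 (3206 CPM) and mt-Cytb (12756 CPM). The same mouse stood apart for Cox8b (17.0 CPM), Ndufa4l2 (22.2 CPM) and Uqcr11 (69.3 CPM). Replicate 3 at 12 weeks was the high mouse for Cox6a2 (7.99 CPM) and Cox7a1 (7.95 CPM), replicate 4 at 12 weeks the low one for mt-Co1 (12854 CPM), and replicate 1 at 12 weeks the high one for Ndufaf5 (6.68 CPM).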

How the results depend on the processing

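Of the 75 nuclear members called higher, 72 to 75 kept that call with DESeq2 size factors, scaling without mitochondrial-encoded genes, DESeq2, limma voom and no count filter, which called 72 to 78 in all. Leaving out 1 mouse at a time gave 66 to 75 nuclear members higher and 0 to 2 lower, 1 to 6 mitochondrial messages lower, and mitochondrial medians of -0.52 to 0.03. With both replicates 3 left out, mitochondrial members had 1 higher and 6 lower, with a median of -0.53. The length and GC offset gave 8 nuclear members higher and 20 lower (median -0.042), with mitochondrial members at 0 higher, 9 lower and -0.83. With the offset and the replicate block together, nuclear members had 6 higher and 15 lower (median -0.045) and mitochondrial members 0 higher and 11 lower (median -0.93). With lengths of the shortest principal transcript, an alternative chosen after seeing the data, nuclear members had 4 higher and 16 lower (median -0.047) and mitochondrial members 0 higher and 5 lower (median -0.70). Log2 fold changes that changed sign and were called with or without the setting were, with the offset, mt-Co2 -0.83, mt-Nd3 -0.13, Sdhb -0.038, Cox6a1 -0.26, Cox6b1 -0.38, Cox6b2 -0.019, Cox7a2 -0.21, Cox8a -0.044, Ndufa4 -0.57, Uqcr11 -0.39, Cox7b -0.042, Atp5h -0.29 and Ndufaf5 -0.072; with offset and block, mt-Nd1 -0.73, mt-Co2 -0.93, mt-Atp6 -0.71, mt-Nd3 -0.16, Sdhb -0.014, Cox6a1 -0.26, Cox6b1 -0.37, Cox6b2 -0.0498, Cox7a2 -0.20, Cox8a -0.045, Ndufa4 -0.57, Uqcr11 -0.39, Cox7b -0.039, Atp5h -0.29 and Ndufaf5 -0.074; with principal transcripts, Cox6a1 -0.0999, Cox6b1 -0.19, Cox7a2 -0.037, Ndufa4 -0.53, Uqcr11 -0.20 and Atp5h -0.29. The cause was not tested. The main fit did not pair mice of equal number, since the labels name nothing that they share. The correlation of their deviations was -0.31 to 0.05, which cannot show whether they shared a litter or batch. The replicate block alone called 68 nuclear members higher and 1 lower and mitochondrial members 2 and 2. Over 771 comparisons of a named gene with its main result, 651 kept direction and call, 53 lost the call, 33 gained it and 34 reversed. A share of mitochondrial counts without ribosomal or transfer RNA could not be told from the main one, since none is listed. Cox6a2 and Cox5b-ps did not pass the count filter. Cox5b-ps had 0 to 2 counts in a library, and Cox6a2 had 216 counts in replicate 3 at 12 weeks and few in the other libraries.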

Other observations

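Of the 75 nuclear members called higher, 3 kept that call with both choices of transcript length in the length and GC offset, and they were picked out after their values were seen. Both choices gave the same length for Sdhc (3171 nt) and Ndufa13 (1251 nt), and 1129 and 1076 nt for Cox7a2l. For these 3 genes the second choice is therefore no check on the transcript used. Sdhc, a membrane anchor of complex II, had a log2 fold change of 0.66 without the offset, 0.56 with the longest transcript and 0.59 with the principal one (edgeR adjusted p = 0.00205, 0.00457 and 0.00381). Ndufa13, an accessory subunit of complex I also known as GRIM-19, was at 77.5, 94.6, 111 and 74.7 CPM at 2 years, against 66.0, 42.9, 43.4 and 48.2 CPM at 12 weeks, and had 0.84, 0.44 and 0.52 (adjusted p = 0.00247, 0.00349 and 0.00173). Cox7a2l, the supercomplex factor, had 1.07, 0.33 and 0.43 (adjusted p = 0.000147, 0.0172 and 0.00531).

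For some members whose lengths lay far apart, the sign depended on which transcript gave the length. Ndufb2 was at 0.77 with a length of 4371 nt and at -0.31 with 455 nt, and Atp5md at 0.57 with 2733 nt and at -0.43 with 352 nt, each called in both directions (edgeR adjusted p = 0.0212 and 0.0314 for Ndufb2, 0.00414 and 0.00322 for Atp5md). Atp5g1, one of the genes for the c ring, was at 0.70 with 4715 nt and at -0.23 with 596 nt (adjusted p = 0.00351 and 0.12). Which transcript the aorta uses was not measured here.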
